A study of Mus musculus with 6 samples.

Results

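The amino acid transporter families SLC1, SLC3, SLC6, SLC7, SLC36, SLC38 and SLC43 were examined in mouse B16F10 melanoma cells. Members were all genes annotated as protein-coding whose symbol begins with one of these family names, which gave 64 of the 54838 genes in the deposited table. The bulk RNA libraries came from 3 control cultures and 3 cultures given fenofibrate at 50 µM, a lipid-lowering drug of the fibrate class that acts through the nuclear receptor PPARα. The labels describe the cultures as biological triplicates and give neither the length of treatment nor what the controls received. Across the 6 libraries, the label for the line counts up from B16F10 to B16F15. Groups were taken from the sample titles, and if that label is meant as written, line and treatment cannot be told apart.

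Cells obtain amino acids through carriers that differ in substrate, driving force and membrane. Heteromeric transporters join a light chain of the SLC7 family, which moves the substrate, to a heavy chain of the SLC3 family, which brings it to the cell surface. System L transporters of this kind take up leucine and other large neutral amino acids in exchange for glutamine. System xc- exports glutamate and imports cystine, a source of the cysteine in glutathione. SLC38 and SLC1 carriers load cells with glutamine and other small neutral amino acids, and several SLC36 and SLC38 members work in the lysosome, where amino acids are sensed for the growth kinase mTORC1. Many of the surface carriers are targets of ATF4, the transcription factor of the amino acid response. Some members of the rule carry other solutes, among them creatine, taurine and monoamines, and 1 member, Slc7a6os, is only the gene opposite Slc7a6 and encodes no transporter.

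With fenofibrate, RNA of the shared heavy chain Slc3a2 rose 2.82-fold, that of the creatine transporter Slc6a8 2.34-fold and that of the cystine transporter Slc7a11 1.59-fold. The leucine transporter gene Slc43a1 was 2.04-fold lower. Of the 64 members, 27 had enough counts to test, 10 were called higher, 4 were called lower and 13 were not called. A gene was called at an adjusted p below 0.05 in edgeR's quasi-likelihood test, adjusted over all 13629 genes tested. Of all those genes, 39.1% were called, 19.5% higher and 19.5% lower, while 51.9% of the tested members were called. The median log2 fold change was 0.12 over the tested members and -0.00 over all genes tested. The count called higher was 6 without control replicate 3 and 4 without fenofibrate replicate 1 or without fenofibrate replicate 2. The count called lower was 2 without fenofibrate replicate 3. Calls for Slc3a2, Slc6a8, Slc7a11, Slc38a10, Slc38a7 and Slc43a1 were made in each of 13 alternative settings, which changed the tool, scaling, filter or block or left out 1 library.

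The libraries held 13540038 to 14710856 counts. Members took 0.340% to 0.343% of the counts in control libraries and 0.385% to 0.413% with fenofibrate. All 10 markers of the melanocyte lineage were counted in large numbers. They summed to 22735 to 24155 CPM (the count scaled by the library total) in control and 27767 to 29399 CPM with fenofibrate. Among these 10, 8 were called higher, where 19.5% of all genes tested were. Fibroblast markers summed to 14.9 to 17.8 CPM in control and 7.73 to 9.38 CPM with fenofibrate, mostly from Pdgfrb. Only 2 of 6 were tested, and 1 was called lower. Macrophage markers summed to 2.13 to 3.41 CPM and 4.18 to 6.79 CPM, mostly from Cd68. Only 1 of 6 was tested, and it was called higher, while Adgre1 had 0 counts. T cell, endothelial and keratinocyte markers each summed to at most 0.662 CPM in any library, and 3 of 5 in each list had 0 counts. The part of these shifts in the results below was not tested. In bulk RNA, fewer cells of a kind and less RNA per cell cannot be told apart.

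Promoter sequence is shown for Slc7a11, since the amino acid response acts through a short DNA element and this window held that element's core. Only the bases before a start were searched. A window without a match therefore does not show that a gene lacks the element. The run gives the 250 bases before the start in RefSeq's promoter table for GRCm38.p6, chr3:50443614-50443863 on the minus strand, 5′ to 3′ in the direction of the gene. That start lies 1 base inside the gene's start in the deposited table. Capitals mark matches, on either strand, to the core of the ATF4-binding element (CARE, TGATGNAA). The antioxidant response element core (TGACNNNGC) and the E-box CACGTG were searched as well.
Slc7a11: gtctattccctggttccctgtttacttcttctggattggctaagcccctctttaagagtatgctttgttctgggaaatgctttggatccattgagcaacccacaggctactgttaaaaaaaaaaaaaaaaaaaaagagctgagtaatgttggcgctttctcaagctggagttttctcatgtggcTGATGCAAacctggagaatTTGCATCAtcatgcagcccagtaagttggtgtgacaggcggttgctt

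The Slc7a11 window held 2 matches to the CARE core, in opposite orientations, at bases 66 to 59 and 47 to 40 before the start. Of 32851 promoter windows of this length in the table, 3.45% held a match to that core, 10.2% to the antioxidant core and 6.02% to the E-box. The Slc7a11 window was shown because of its matches, so the share does not measure how unusual they are. Of the 27 tested members, 19 had an entry, and 2 of these, Slc7a11 and Slc7a7 (not called), held a CARE core match. Some members have several windows and were counted if any of them held a match. Counts of members are therefore not comparable with the shares of windows, for any of the motifs. For Slc3a2 and Slc43a1 the RefSeq start lies 9472 and 1473 bases inside the gene as the deposited table gives it, so their windows are not upstream of the table's start. The E-box occurred in a window of Slc36a1, Slc38a7 and Slc43a1. The antioxidant core occurred in a window of Slc38a2, Slc43a1, Slc6a9, Slc7a1 and Slc7a6. The Slc6a9 windows with a match belong to RefSeq starts 14844 and 21041 bases inside the gene as the deposited table gives it. A match describes the letters of the window and not a bound site.

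Slc3a2 encodes CD98hc, the heavy chain shared by system L, system xc- and the y+L exchangers. It lies on chromosome 19 from 8706882 to 8723369 (ENSMUSG00000010095, GRCm38) and overlaps no other gene of the table. Its level was 237, 229 and 264 normalised CPM (scaled by TMM library totals) in the control libraries and 766, 669.6 and 624 in the fenofibrate libraries. All 3 treated libraries lay far above the controls, and fenofibrate replicate 1 was the highest. The rise of 2.82-fold had a 95% interval of 2.46-fold to 3.24-fold (adjusted p = 2.53e-05; SE of the log2 fold change 0.08). In later values, ± after a log2 fold change is its SE and ± after a level is the SD of 3 libraries. The other heavy chain, Slc3a1, which pairs with the kidney cystine transporter, had 0 counts in control and 6 with fenofibrate and was not tested. It overlaps Prepl, with 2987 counts.

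The light chains that pair with Slc3a2 moved by less and in different directions. Slc7a11, or xCT, the light chain of system xc- (chromosome 3, 49892526 to 50443614), stood at 63.8, 69.8 and 66.4 normalised CPM in control and 115, 109 and 94.5 with fenofibrate. Its groups did not overlap, and the log2 fold change was 0.67 ± 0.08 (adjusted p = 0.000639). Slc7a5, or LAT1, the main system L light chain (chromosome 8, 121881150 to 121907694), stood at 256, 259.97 and 264 in control and 296, 292 and 277 with fenofibrate. The groups were apart but close, a rise of 1.11-fold (log2 fold change 0.15 ± 0.04, adjusted p = 0.0190), and the call was lost in 8 of 13 alternative settings. Slc7a6, or y+LAT2, which exchanges arginine for glutamine, stood at 52.6, 55.9 and 56.9 in control and 44.2, 51.3 and 44.8 with fenofibrate. It was 1.18-fold lower (log2 fold change -0.24 ± 0.07, adjusted p = 0.0384), with every treated library below every control, and lost its call in 7 of 13 settings.

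The related y+LAT1 gene Slc7a7 and the LAT2 gene Slc7a8 were low and not called. Slc7a7 was at 10.9 ± 0.831 normalised CPM in control and 9.13 ± 0.668 with fenofibrate (mean ± SD of 3 libraries), with an adjusted p of 0.110. With limma on FPKM it was called lower (adjusted p = 0.0385 and 0.0404 with the smaller and larger pseudocount). Slc7a7 overlaps Oxa1l, a mitochondrial membrane insertase gene with 2920 counts. Slc7a8 was at 3.60, 3.28 and 3.99 in control and 4.23, 5.31 and 3.75 with fenofibrate, in groups that overlapped (adjusted p = 0.251). Slc7a10, a light chain best known from brain, had 0 counts in all libraries.

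Set against each other per length, heavy and light chain transcripts changed places. In deposited FPKM, which scale fragments by gene length and library total, Slc3a2 went from 37.3 ± 2.69 to 101 ± 10.6 (mean ± SD of 3 libraries), while the summed light chains Slc7a5, Slc7a6, Slc7a7, Slc7a8, Slc7a10 and Slc7a11 went from 75.5 ± 0.938 to 80.4 ± 3.11. The ratio of Slc3a2 to these light chains was 0.490, 0.462 and 0.528 in the control libraries and 1.38, 1.20 and 1.20 in the fenofibrate libraries. The groups did not overlap, and a two-sided exact permutation test gave p = 0.1, the smallest that 3 libraries against 3 allow. The size of the ratio depends on gene length. With the merged exon length of GENCODE M21 it was 0.757 ± 0.0511 in control and 1.96 ± 0.163 with fenofibrate, so that its rise was 2.59-fold in place of 2.55-fold. Among the light chains, Slc7a5 made up 81.3% ± 0.220 of the summed FPKM in control and 81.5% ± 0.611 with fenofibrate. The part of Slc7a11 went from 5.73% ± 0.217 to 8.24% ± 0.544, with no overlap of the groups (exact permutation p = 0.1).

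**Figure D1:**
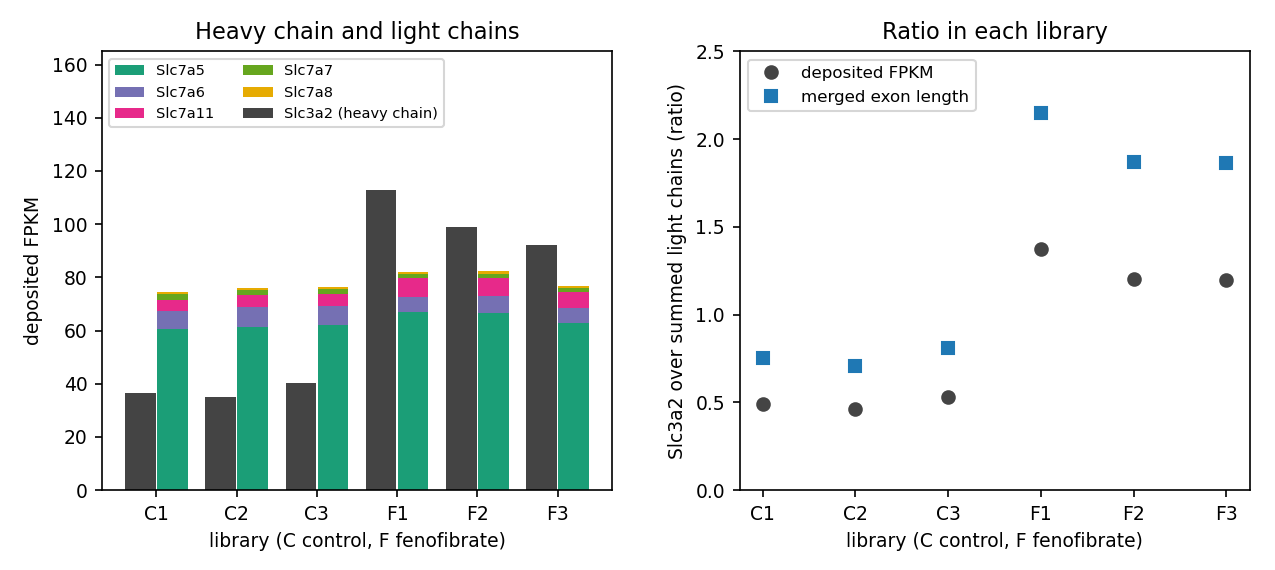
Left, deposited FPKM of the heavy chain gene Slc3a2 beside the stacked FPKM of 5 light chain genes in each library; right, the ratio of Slc3a2 to the summed light chains in each library, on the deposited FPKM and on FPKM by merged exon length. Slc3a2 lies below the light chains in the 3 control libraries and above them in the 3 fenofibrate libraries on the deposited scale, at ratios from 0.462 to 0.528 and from 1.20 to 1.38.

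The cationic amino acid transporters take up arginine and lysine. Slc7a1, or CAT-1, the widespread member, stood at 502.5, 502.4 and 479 normalised CPM in control and 504, 513 and 467 with fenofibrate. These values overlapped, and the log2 fold change was 0.00 with a 95% interval from -0.10 to 0.10 (adjusted p = 0.995). Slc7a4 was barely counted, with 5, 13 and 16 counts in control and 8, 7 and 14 with fenofibrate (adjusted p = 0.742). Slc7a3 had too few counts to test, 9 over the control libraries and 35 over the fenofibrate libraries. Slc7a14 had 9 and 18, and Slc7a2 had 0 in all libraries.

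Of the SLC1 exchangers of small neutral amino acids, 1 of 2 was called. Slc1a4, or ASCT1, which carries serine and alanine, stood at 69.9, 68.4 and 62.96 normalised CPM in control and 89.1, 88.9 and 74.9 with fenofibrate. It rose 1.26-fold, with fenofibrate replicate 3 nearest to the controls (log2 fold change 0.33 ± 0.08, adjusted p = 0.0158), and the call was lost in 5 of 13 settings. Slc1a5, or ASCT2, a main glutamine carrier of tumour cells, stood at 114, 112 and 125 in control and 109, 117 and 105 with fenofibrate. Its groups overlapped, with a log2 fold change of -0.08 and an interval from -0.23 to 0.07 (adjusted p = 0.350). The glutamate and aspartate transporters Slc1a1, Slc1a2, Slc1a3, Slc1a6 and Slc1a7 had between 0 and 2 counts over all 6 libraries.

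Of 11 SLC38 members, 7 were tested: 4 were called higher, 1 lower and 2 were not called. Over all genes tested, 19.5% were called higher and 19.5% lower. SLC38 had the highest summed deposited FPKM of any class, but by merged exon length the heavy chain class was higher with fenofibrate, at 191 ± 19.9 against 147 ± 2.67. The 2 most abundant, Slc38a1 and Slc38a2, are the glutamine and alanine carriers SNAT1 and SNAT2. Slc38a1 stood at 650.1, 660.2 and 627 normalised CPM in control and 706, 705 and 688 with fenofibrate, a rise of 1.08-fold (adjusted p = 0.0289). Slc38a2, a textbook gene of the amino acid response, stood at 447, 454 and 467 in control and 506, 488 and 481 with fenofibrate, also a rise of 1.08-fold (adjusted p = 0.0463). Neither gene's groups overlapped on this scale, and the calls were lost in 9 and 10 of 13 settings. In deposited FPKM the groups of Slc38a2 did overlap. Slc38a10 rose 1.19-fold, from 214, 219 and 221 to 266, 259 and 256 normalised CPM (log2 fold change 0.26 ± 0.04, adjusted p = 0.00128). Its replicates were tightly grouped, and the call was made in all 13 settings.

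A pair of SLC38 genes whose products sit on the lysosome moved in opposite directions. Slc38a7, or SNAT7, which exports glutamine from the lysosome, stood at 49.9, 51.6 and 52.0 normalised CPM in control and 39.4, 41.6 and 39.2 with fenofibrate. It was 1.28-fold lower in groups that lay well apart (log2 fold change -0.35 ± 0.06, adjusted p = 0.00243). Slc38a9, the lysosomal arginine sensor of mTORC1, stood at 21.3, 18.4 and 18.1 in control and 22.3, 23.8 and 24.7 with fenofibrate. It rose 1.23-fold (log2 fold change 0.29 ± 0.09, adjusted p = 0.0397), with control replicate 1 close to fenofibrate replicate 1, and the call was lost in 11 of 13 settings. Slc38a6 was at 16.6 ± 0.541 and 19.0 ± 1.81 (adjusted p = 0.144) and Slc38a3, at 1.03 ± 0.595 and 0.645 ± 0.178, was near the limit of testing (adjusted p = 0.346). Slc38a8 had 3 counts, and Slc38a4, Slc38a5 and Slc38a11 had 0.

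**Figure D2:**
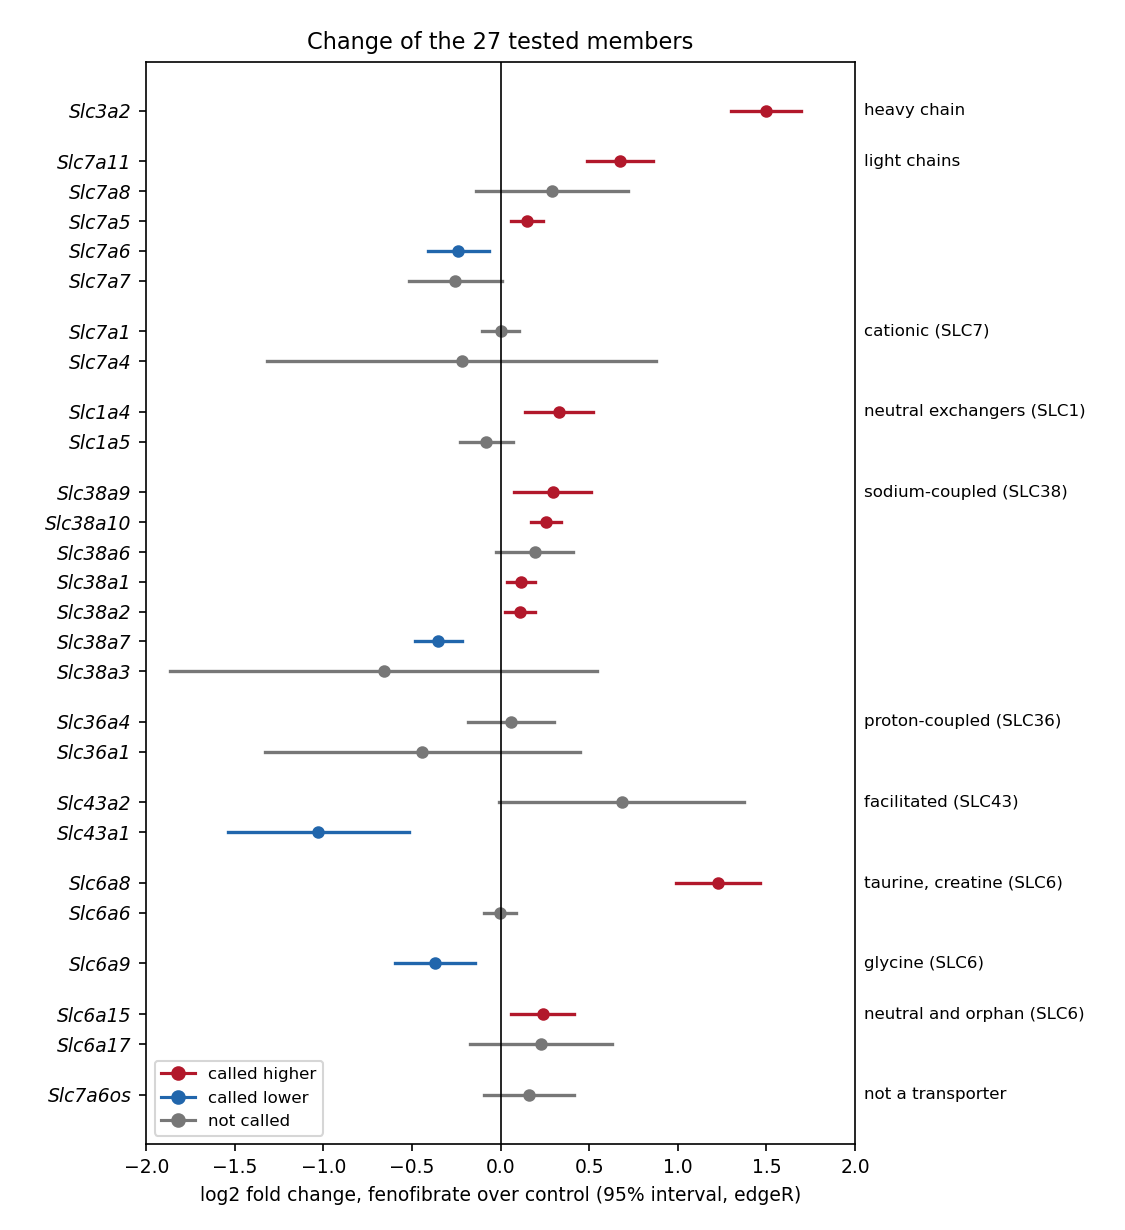
Log2 fold change (fenofibrate over control) of the 27 tested members in edgeR, ordered by functional class, with points at the estimate and bars for the 95% interval. Slc3a2 (2.82-fold) and Slc6a8 (log2 fold change 1.23) stand highest and Slc43a1 (-1.03) lowest, while the interval of Slc7a1 spans -0.10 to 0.10.

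Neither tested SLC36 gene, of proton-coupled transporters that work in endosomes and lysosomes, was called. Slc36a1, or PAT1, was counted 379, 470 and 398 times in control and 112, 419 and 391 times with fenofibrate. Fenofibrate replicate 1 alone was low, and the other two treated libraries lay within the range of the control counts. The log2 fold change was -0.44 ± 0.38 (adjusted p = 0.392), and -0.06 without fenofibrate replicate 1 (adjusted p = 0.689). Slc36a4 was at 23.8 ± 0.846 and 24.8 ± 3.26 normalised CPM (adjusted p = 0.686). Slc36a2 had 1 count and Slc36a3 had 7 over all libraries.

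The SLC43 pair of facilitated transporters for leucine and other large neutral amino acids showed opposite signs. Slc43a1, or LAT3 (chromosome 2, 84838850 to 84863594), was counted 136, 166 and 100 times in control and 64, 78 and 53 times with fenofibrate. Every treated library was below every control, and the log2 fold change was -1.03 ± 0.22, of which the 95% interval ran from -1.54 to -0.52 (adjusted p = 0.00826). Slc43a2, or LAT4, was counted 160, 131 and 63 times in control and 167, 228 and 170 times with fenofibrate. Its treated libraries were all above the controls, of which control replicate 3 was low, and the log2 fold change of 0.68 ± 0.30 was not called (adjusted p = 0.107). It was called with DESeq2 (adjusted p = 0.0419) and without control replicate 1 (log2 fold change 0.97, adjusted p = 0.0465), while without control replicate 3 the log2 fold change was 0.39 (adjusted p = 0.151). Slc43a3, a purine carrier, had 4 counts.

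**Figure D3:**
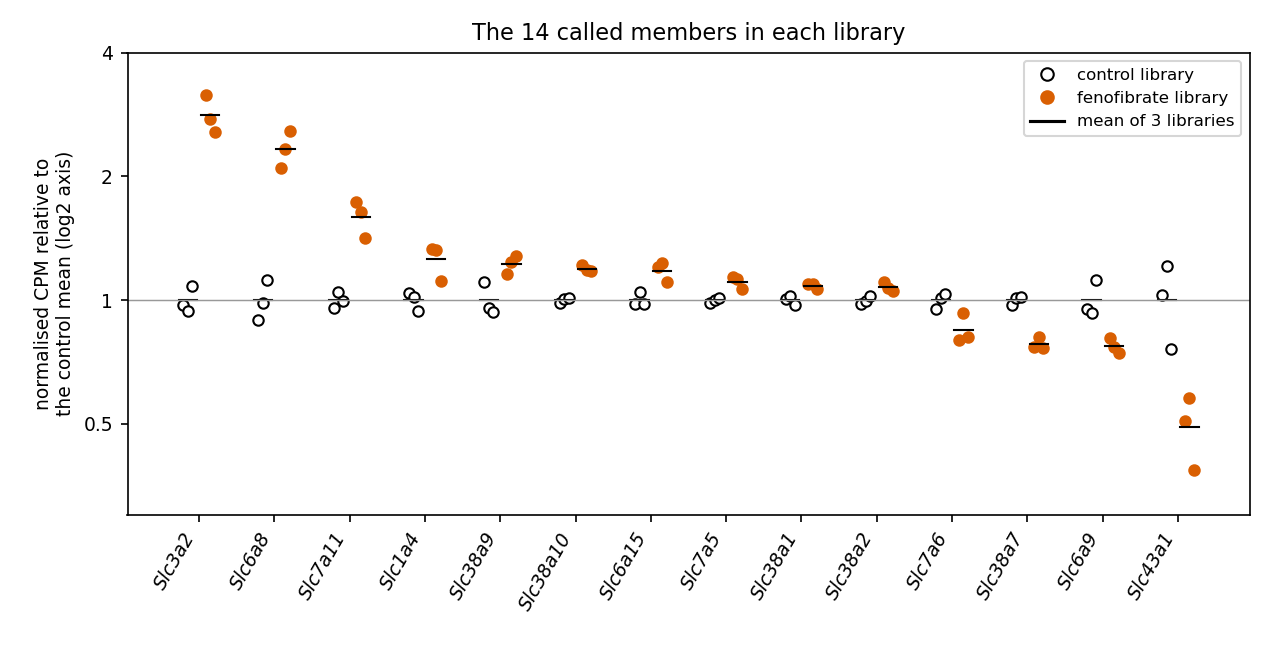
Normalised CPM of the 14 called members in each library, relative to the mean of the 3 control libraries, on a log2 axis; open points are control libraries, filled points fenofibrate libraries and lines the means of 3. The treated points of Slc3a2, Slc6a8 and Slc7a11 lie well above their controls, those of Slc43a1 lie below, and those of Slc38a1 and Slc38a2 lie about 1.08-fold above.

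In SLC6, a family of sodium- and chloride-coupled carriers, 5 of 21 members were tested. Slc6a8, the creatine transporter (chromosome X, 73673150 to 73682502), stood at 64.4, 71.0 and 80.6 normalised CPM in control and 151, 168 and 186 with fenofibrate. All treated libraries lay above the controls, and the log2 fold change was 1.23 ± 0.10, of which the 95% interval ran from 0.99 to 1.46 (adjusted p = 0.000139). The gene overlaps no other gene of the table. Slc6a6, the taurine transporter, was more abundant and overlapped between groups, at 306, 305 and 297 in control and 312, 293 and 299 with fenofibrate (log2 fold change -0.00, interval -0.09 to 0.08, adjusted p = 0.937).

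Slc6a9, the glycine transporter GlyT1, fell 1.29-fold, from 20.6, 20.1 and 24.2 normalised CPM to 17.5, 16.6 and 16.0 (log2 fold change -0.37 ± 0.10, adjusted p = 0.0191). All treated libraries were below the controls, and the call was lost in 2 of 13 settings. Slc6a9 overlaps B4galt2, a galactosyltransferase gene with 450 counts, and with no strand setting given, reads from the shared stretch cannot be told apart. Slc6a15, a carrier of branched-chain amino acids and proline, rose 1.18-fold, from 22.9, 24.6 and 22.9 to 28.2, 28.8 and 25.97 (adjusted p = 0.0432), and lost its call in 11 of 13 settings. Slc6a17, a vesicular carrier of neutral amino acids, was at 103, 99.4 and 112 in control and 135, 146 and 87.3 with fenofibrate (adjusted p = 0.324). Its treated replicate 3 lay below every control, and without it the gene was called (log2 fold change 0.42, adjusted p = 0.00459). The proline transporter Slc6a7 had 25 counts and was not tested.

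In all, 37 members were not tested. Of these, 21 had 0 counts in every library, for which 3 counts, the limit from counting error alone, come to 0.204 to 0.222 CPM in these libraries. They were Slc1a3, Slc1a6, Slc38a4, Slc38a5, Slc38a11, Slc7a2, Slc7a10, Slc7a12, Slc7a13, Slc7a15 and 11 SLC6 genes, among them the noradrenaline and dopamine transporters Slc6a2 and Slc6a3 and the GABA transporters Slc6a11 and Slc6a13. The other 16 had 1 to 44 counts over the 6 libraries, with Slc7a3 the highest. Slc7a9, the kidney light chain that pairs with Slc3a1, had 2 counts in control and 13 with fenofibrate. Slc7a6os, the member that is no transporter, was at 31.6 ± 2.69 and 35.3 ± 4.52 normalised CPM (adjusted p = 0.277).

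Precision differed with depth and with the spread between libraries. The 21 tested members with over 1000 counts in all had SEs of the log2 fold change from 0.03 to 0.38, and 13 of them were called. The 6 with fewer counts had SEs from 0.11 to 0.52, and 1 of them, Slc43a1, was called. Slc36a1, with 2169 counts, had an SE of 0.38 and Slc7a7, with 840 counts, one of 0.11. The 3 fenofibrate values did not overlap the 3 control values for 17 of the 27 tested members, 12 above and 5 below. The same held for 53.3% of all genes tested. Slc38a6, Slc43a2 and Slc7a7 were apart in this way without being called.

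Summed per length, transporter RNA was higher with fenofibrate, and among the classes the heavy chain rose most. Slc3a2 made up nearly all of that class and most of the rise of the sum. The 63 transporter members summed to 343 ± 2.72 deposited FPKM in control and 422 ± 17.1 with fenofibrate (mean ± SD of 3 libraries). The groups did not overlap (exact permutation p = 0.1, the smallest possible). The heavy chain class went from 37.3 ± 2.69 to 101 ± 10.6 FPKM, which was 10.9% ± 0.711 and 24.0% ± 1.67 of the sum. The SLC38 class went from 107.5 ± 0.668 to 112 ± 2.04 FPKM, which was 31.4% ± 0.240 and 26.5% ± 0.601 of the sum. In control libraries the most abundant members were Slc7a5 (61.4 ± 0.691 FPKM), Slc38a2 (46.4 ± 0.871), Slc7a1 (40.3 ± 1.23) and Slc3a2 (37.3 ± 2.69), the last 2 of which overlapped in their spread. This order turns on gene length: by merged exon length Slc7a5 was at 71.3 ± 0.803, Slc3a2 at 70.1 ± 5.06, Slc38a2 at 52.6 ± 0.986 and Slc7a1 at 43.7 ± 1.33. With fenofibrate Slc3a2 was the most abundant (101 ± 10.6), followed by Slc7a5 (65.5 ± 2.27) and Slc38a2 (48.1 ± 1.20).

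**Figure D4:**
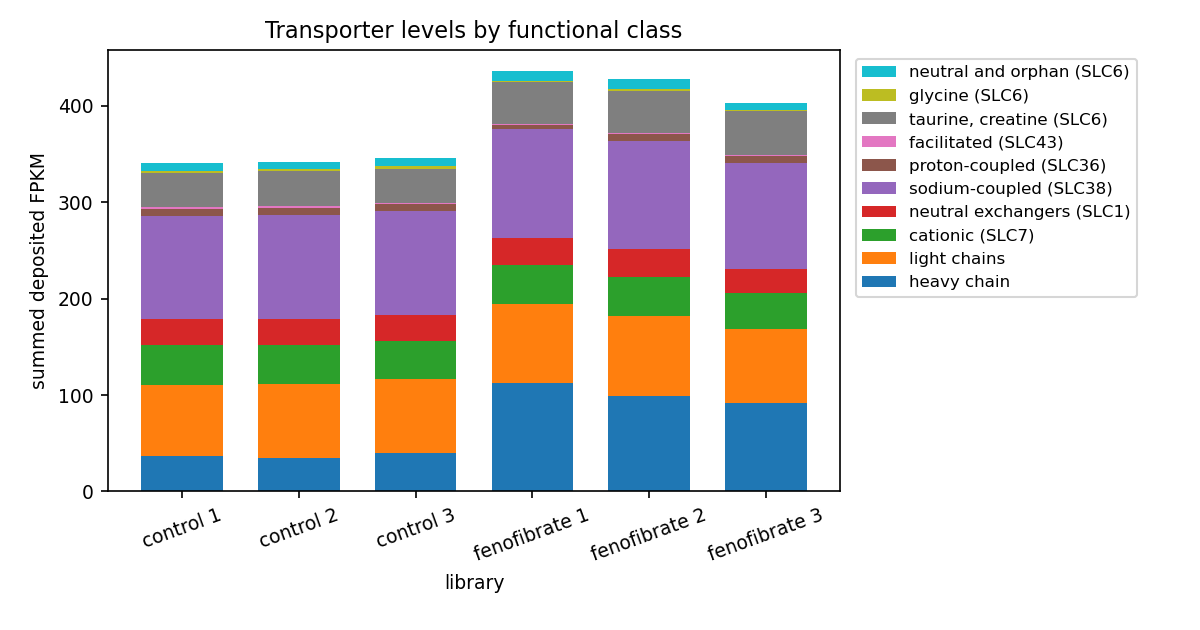
Summed deposited FPKM of the transporter members in each library, stacked by functional class. The sums run from 340 to 346 in control and from 403 to 436 with fenofibrate, and the heavy chain segment is the one that widens most, from 37.3 to 101 on average.

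Of 9 transporter genes listed as amino acid response targets, 8 were tested, 5 were called higher (Slc3a2, Slc7a11, Slc1a4, Slc7a5 and Slc38a2), 1 lower (Slc6a9) and 2 not called (Slc7a1 and Slc1a5). The list's median log2 fold change was 0.13, and 75% of its tested genes were called. This list and those that follow were chosen with earlier results of these data known. Their shares called are therefore descriptive and not an independent test. Of all genes tested, 39.1% were called, 19.5% in each direction. The calls of Slc1a4, Slc7a5, Slc38a2 and Slc6a9 were lost in 5, 8, 10 and 2 of 13 alternative settings. Among other genes of that response more were called lower than higher. Of 29 tested, 3 were called higher, 13 lower and 13 not called, with a median of -0.17, so that 55.2% were called. Ddit4 and Sesn2, inhibitors of mTORC1 that stress induces, were 2.21-fold and 1.76-fold lower. Atf3 and Cebpb, transcription factor genes that many stresses induce, rose 5.38-fold and 1.77-fold. The third was Ddit3, which encodes CHOP, a factor of prolonged stress responses, at 71.7 ± 1.42 normalised CPM in control and 82.9 ± 2.60 with fenofibrate (adjusted p = 0.0133). Ddit3 overlaps Mars, a tRNA synthetase gene, and Cebpb overlaps Tmem189, a protein-coding gene with more counts than Cebpb. With no strand setting given, reads from such shared stretches cannot be told apart. Atf4 itself was at 313 ± 27.8 normalised CPM in control and 295 ± 9.59 with fenofibrate (adjusted p = 0.335). The asparagine synthetase gene Asns, a classic ATF4 target, was at 354, 319 and 355 in control and 309, 323 and 282 with fenofibrate (adjusted p = 0.0660). Atf4, Asns and Ddit3 were named after their values were seen.

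Among genes that report amino acids to mTORC1, a list that includes Slc38a9, 36 were tested: 14 were called higher, 5 lower and 17 not called, with a median log2 fold change of 0.13 and 52.8% called. The share called over all genes tested was 39.1%, with 19.5% in each direction. Sesn3, a sestrin, rose 2.23-fold and Flcn, which activates Rag GTPases, 1.70-fold. Its relative Sesn2, the leucine sensor, was 1.76-fold lower, and Wdr59, a GATOR2 subunit gene, 1.27-fold lower. The count called lower was 2 without control replicate 1 and 3 without control replicate 3, fenofibrate replicate 1 or fenofibrate replicate 3. Of 22 tested genes listed as other amino acid carriers, mostly of mitochondria, 3 were called higher, 3 lower and 16 not called (median -0.11, 27.3% called). Slc25a40 rose 1.327-fold, and Slc25a44, the mitochondrial carrier of branched-chain amino acids, rose 1.303-fold. Slc25a38, the mitochondrial glycine carrier, and the mitochondrial serine carrier Sfxn1 were 1.36-fold and 1.26-fold lower. The count called lower was 1 without control replicate 2, without fenofibrate replicate 1 or without fenofibrate replicate 2.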

How the data were processed

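Counts per gene for 6 libraries were used as deposited, with no normalization by the authors, and FPKM values as the authors made them. The submitters' processing notes name HISAT2 2.0.4, StringTie 1.3.0 and GRCm39 without roles. The counting tool and strand setting are not given in the sources used here. The table's coordinates are those of GRCm38: 63 of 64 members have the same start and end in GENCODE M21. The length behind the deposited FPKM was 1.08 to 2.77 times the merged exon length for tested members. Counts were fitted in R 4.3.3 with edgeR 4.0.16 (filterByExpr with a minimum count of 10, TMM, glmQLFit, glmQLFTest, no covariate), with Benjamini-Hochberg adjustment over 13629 genes. The SE is the log2 fold change over the square root of F. Alternatives used DESeq2 1.42.0, limma 3.58.1 on log2(FPKM + 0.5) or log2(FPKM + 1), other filters and scaling, a replicate block and left-out libraries. Replicate pairs differed by more than counting noise. The members and lists were chosen with earlier results of these data known. Genes were named by rule: among members, those called whose mean reached 1 FPKM with or without treatment, plus 6 set carriers. From each other list, at most 2 such called genes in each direction, by size of change, were named. Where a symbol stood on 2 rows (Ddit3), the row with more counts was used. One alternative, merged exon length, was chosen after seeing the data. The edgeR p-values set the difference between groups against the spread between these libraries, with that spread estimated partly from all genes tested.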

Additional observations from a re-analysis of the deposited data

How the results depend on the processing

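Of the 14 called members, 6 kept their call in all 13 settings, and 0 values reversed. Lost calls came to 63 values over the other 8 members, and 5 values of members not called passed the threshold. RLE scaling in place of TMM kept 14 of 14 calls. DESeq2 kept 9, edgeR without a filter on low counts 10 and the replicate block 9. The limma fits kept 8 or 9, and fits that left out 1 library kept 7 to 11. The count of transporter genes called higher was 10. It was 7 with DESeq2, 7 with edgeR without a filter on low counts and 5 with the replicate block. With limma it was 4 on log2(FPKM + 0.5), 5 on log2(FPKM + 1), and 4 on log2(FPKM + 0.5) without a filter. Over fits that left out 1 library it ran from 4 to 11, and the count called lower, 4, ran from 2 to 3. The count of amino acid sensing genes called lower, 5, was 3 with DESeq2 and 3 with the replicate block, and 2 to 5 with 1 library left out. The count of other carriers called lower, 3, was 2 with DESeq2, RLE or the block, 5 with limma at either pseudocount, and 1 to 4 with 1 library left out. In limma on FPKM, which are scaled by library totals, 40.3% of all calls were higher, against 50% with TMM, and the median log2 fold change of all genes was -0.05. The cause of these changes was not tested. Deviations of same-numbered libraries were hardly correlated (0.013 to 0.030), though each control library correlated best with its own number. The labels name nothing shared, so the block is given here only. The rise of Slc3a2 per light chain ran from 2.43-fold to 2.65-fold with 1 library left out. Of the 6 tested members under 1000 counts, 1 was called, and the SE of the log2 fold change reached 0.52.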
